A study of Homo sapiens with 4 samples.

Results

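The downstream-only H3K4me3 peaks described here lie past the 3′ end of a gene and outside every transcript to which the authors joined them. A distinct peak was taken when at least 1 of its lines was flagged as lying within 20 kb downstream of a RefSeq transcript and none was flagged as upstream, exon or intron. The rule gave 1688 of the 24212 distinct H3K4me3 peaks of RS4;11 cells (6.97%, 95% Wilson interval 6.66 to 7.30) and 1914 of the 26523 of THP-1 cells (7.22%, 6.91 to 7.53), 3602 of 50735 peaks in all.

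ChIP-seq for H3K4me3 and for WDR5 was performed once in each line, so there are 4 samples and none is replicated. RS4;11 cells come from a lymphoblastic leukemia of B-cell precursors, and THP-1 cells from an acute monocytic leukemia. Both carry a rearranged MLL gene, so neither stands for leukemia without it, and both were grown untreated in RPMI1640 with 10% FBS. In the labels, the cell type disagrees with the cell line for a pair of samples: H3K4me3 of RS4;11 is called myeloid and WDR5 of THP-1 lymphoblastic. The cell line was followed, as in the paper. The files hold peak positions and flags only, with no reads, heights or p-values, so the depth is unknown. Every interval below is over peaks, covers no variation between cultures, and comes with no test.

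Trimethylation of histone H3 lysine 4 is laid down by the SET1 and MLL complexes, which share WDR5 as a subunit. In most cells the mark is strongest over the start of transcribed genes, above all at CpG islands, and weaker at some enhancers. A peak past the end of a gene can therefore lie at the start of another transcript, coding or noncoding, at a gene transcribed by RNA polymerase III, or at an element with no annotated transcript.

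The defining genes did not separate the lines by the leukemia types of the cell lines. Among the defining B-lineage genes, CD79A had an exon-flagged H3K4me3 peak in RS4;11 cells only, and PAX5 and EBF1 had one in THP-1 cells only. VPREB1 and RAG1 had none in either line. Of 6 defining monocytic genes, CD14, LYZ and ITGAM had one in RS4;11 cells and the same 3 and CSF1R in THP-1 cells, while MPO and CEBPA had none in either. Over the whole lists, 7 of 20 B-lineage factors and 9 of 24 B-cell receptor and recombination genes had one in RS4;11 cells, against 14 and 16 in THP-1 cells. Of the myeloid factors 16 of 22 had one in RS4;11 and 7 in THP-1 cells, and of the monocyte receptors 18 of 31 and 25. Thus 3 of these 4 lists ran against the types of the cell lines. For the RS4;11 H3K4me3 sample the cell type label, myeloid, also goes against the cell line. Whether the cell line labels of the H3K4me3 samples are right was not tested. The lines are named by the cell line labels throughout, and every statement by line below rests on those labels.

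Absence of an exon-flagged peak in these files was also seen at genes that every cell uses. Only 6 of 16 housekeeping genes, listed after the values were seen, had one in RS4;11 and 6 in THP-1 cells. GAPDH had 2 peaks and ACTB 1 peak in each line, all flagged downstream of the gene and none flagged in an exon. No peak in either file was wider than 4478 bp. So a gene without an exon-flagged peak is described below as a gene without one in these files, and not as a gene without the mark. Likewise, a member without overlap is one with no peak listed there for the other line, and not one without the mark there. The cause was not tested.

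The sequence of the shared members is shown first, because CpG content differed between the peaks that the lines shared and those they did not. The middle 200 bases of the stretch common to both lines are given for 3 of the 4 loci with the most shared bases. They are on the plus strand of hg19, and capitals mark each CpG.
past ZNF213, chr16:3208834-3209033: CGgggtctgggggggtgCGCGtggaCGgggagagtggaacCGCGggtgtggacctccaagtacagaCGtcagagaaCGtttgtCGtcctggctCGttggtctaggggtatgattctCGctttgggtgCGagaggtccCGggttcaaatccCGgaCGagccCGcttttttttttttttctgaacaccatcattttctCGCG
past OR6S1, chr14:21099610-21099809: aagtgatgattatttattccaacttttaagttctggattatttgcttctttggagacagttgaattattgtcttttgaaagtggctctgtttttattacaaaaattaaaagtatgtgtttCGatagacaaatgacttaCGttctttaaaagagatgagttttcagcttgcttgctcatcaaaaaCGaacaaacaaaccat
past DNAJB12, chr10:74079667-74079866: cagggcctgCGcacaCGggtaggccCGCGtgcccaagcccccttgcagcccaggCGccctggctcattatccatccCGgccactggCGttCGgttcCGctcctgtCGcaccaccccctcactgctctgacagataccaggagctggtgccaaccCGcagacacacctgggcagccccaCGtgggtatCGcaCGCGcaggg
These windows hold 18, 3 and 15 CpG sites, so the centres of these shared peaks ranged from CpG-dense to CpG-poor.

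For comparison, the middle 200 bases are given for 3 of the widest members that overlapped no H3K4me3 peak of the other line, in the same notation. The first pair is from RS4;11 cells and the last from THP-1 cells.
past ADPRHL1, chr13:114061012-114061211: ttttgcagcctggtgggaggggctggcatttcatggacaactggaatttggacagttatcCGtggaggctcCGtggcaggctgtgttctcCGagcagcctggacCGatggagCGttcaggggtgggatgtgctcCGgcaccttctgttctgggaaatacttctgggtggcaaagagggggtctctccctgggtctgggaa
past RTN4R and MIR1286, chr22:20226849-20227048: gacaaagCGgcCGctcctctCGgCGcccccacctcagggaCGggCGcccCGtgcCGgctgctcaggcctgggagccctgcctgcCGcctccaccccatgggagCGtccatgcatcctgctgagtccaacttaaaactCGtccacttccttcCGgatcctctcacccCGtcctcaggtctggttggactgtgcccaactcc
past LOC284276, chr18:74277916-74278115: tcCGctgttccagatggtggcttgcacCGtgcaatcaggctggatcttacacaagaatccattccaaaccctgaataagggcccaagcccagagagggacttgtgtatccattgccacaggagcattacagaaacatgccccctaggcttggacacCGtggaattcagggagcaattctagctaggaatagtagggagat
They hold 6, 13 and 3 CpG sites, a range within that of the shared windows.

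Downstream-only peaks were narrow. The median width was 920 bp in RS4;11 cells (quartiles 651 and 1426, range 211 to 4339) and 878 bp in THP-1 cells (quartiles 647 and 1288, range 233 to 4119). Exon-flagged peaks had medians of 2359 and 2149 bp in the same files. Upstream-only peaks, flagged only within 20 kb upstream, had medians of 936 and 906 bp, and intron-only peaks 895 and 810 bp. Only 34 RS4;11 members (2.01%) and 24 THP-1 members (1.25%) reached 3000 bp, against 25.2% and 19.8% of exon-flagged peaks.

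**Figure D1:**
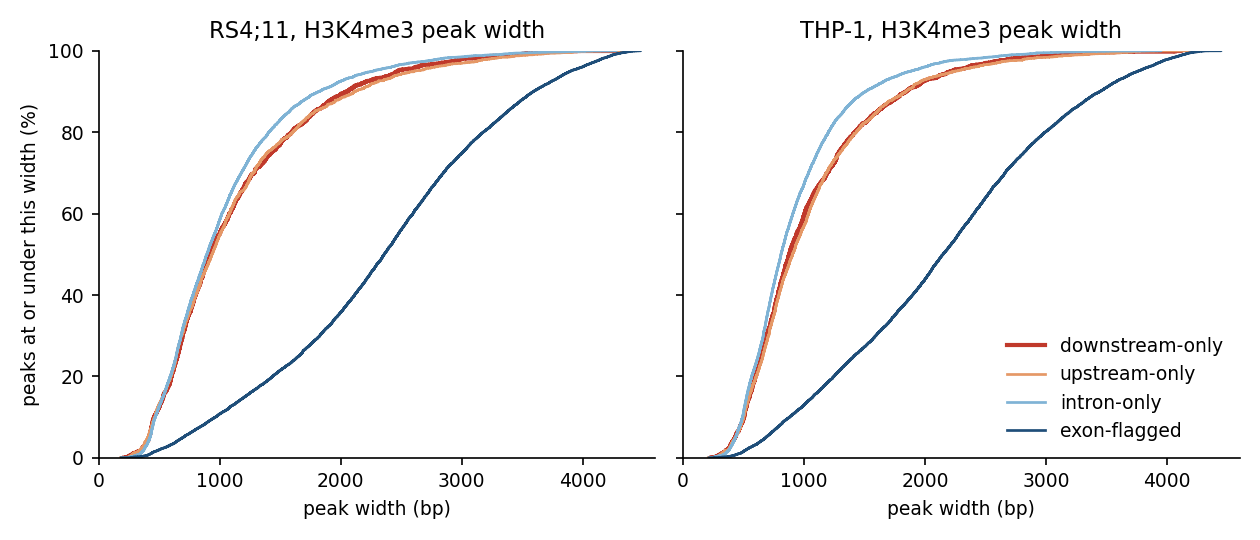
Cumulative share of H3K4me3 peaks (%) against peak width (bp) for 4 positions relative to transcripts, RS4;11 on the left and THP-1 on the right. The downstream-only line lies on the upstream-only line (medians 920 and 936 bp, and 878 and 906 bp), and the exon-flagged line lies far to the right (2359 and 2149 bp).

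Wide members past ZNF213 and OR6S1, genes of a zinc finger protein and an olfactory receptor, were found in both lines. Past ZNF213 the shared peak was 3845 bp wide in RS4;11 cells and 4069 bp in THP-1 cells, with 3845 bp in common. Past OR6S1 it was 3187 and 4052 bp wide, with 3187 bp in common. The member past GRASP measured 3785 bp in RS4;11 cells (chr12:52416282-52420066) and 3723 bp in THP-1 cells and held an annotated start of NR4A1, an orphan nuclear receptor and immediate early gene. So the flag named the gene upstream of the peak, while the annotation placed the start of the next gene inside it.

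Others of great width met no listed peak of the other line or met a much narrower one. The widest RS4;11 member, 4339 bp past ADPRHL1, overlapped no THP-1 peak. It lay at chr13:114058942-114063280, and GENCODE, whose ADPRHL1 gene runs farther than the transcripts the authors used, places its centre in an exon of that gene. The second, past C2orf57 (chr2:232476918-232480868), was 3951 bp in RS4;11 cells and 2563 bp in THP-1 cells. The widest THP-1 member, 4119 bp past MARCKS, a substrate of protein kinase C (chr6:114191217-114195335), held the start of the lncRNA MROCKI, and its RS4;11 counterpart was 898 bp. The 3802 bp member past RTN4R, the Nogo receptor gene, and MIR1286 (chr22:20225048-20228849) was found in RS4;11 cells without an overlapping THP-1 peak.

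The other loci with the most shared bases lay past DNAJB12, an endoplasmic reticulum co-chaperone, with peaks of 3463 bp in RS4;11 cells and 3285 bp in THP-1 cells, and past SLC25A1, the mitochondrial citrate carrier, and CLTCL1, with peaks of 3149 and 3487 bp. Past LBXCOR1, a transcriptional corepressor, the peaks were 3634 and 3105 bp, past C2orf85 3220 and 3106 bp, and past OR10AD1 and C12orf68 3153 and 3371 bp. Of these 5 loci, all but that past DNAJB12 held an annotated lncRNA start in RS4;11 cells. So the longest stretches common to both lines often coincided with lncRNA starts that the flags do not name. Such loci are wide, and a wide interval has more room for an annotated start. Of the members met by no peak of the other line, the widest in THP-1 cells were a 4077 bp peak nearer to ZNF213 (chr16:3199352-3203428) and a 3364 bp peak past LOC284276. In RS4;11 cells the third widest, after those past ADPRHL1 and RTN4R, lay past HMGN4.

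Between the lines, 731 of 1688 RS4;11 members (43.3%, 41.0 to 45.7) overlapped a THP-1 H3K4me3 peak by at least 1 bp, against 55.8% of all RS4;11 peaks. Of the THP-1 members 743 of 1914 (38.8%, 36.7 to 41.0) overlapped an RS4;11 peak, against 51.8% of all THP-1 peaks. Members were shared less often than exon-flagged peaks (80.1% and 71.4%) and more often than intron-only peaks (26.7% and 28.5%), with intervals apart in both lines. Against upstream-only peaks the shares were 47.9% in RS4;11 cells (45.8 to 50.1) and 39.1% in THP-1 cells (37.3 to 40.9), so the intervals lay just apart in the first and overlapped widely in the second. The overlapping peak was itself downstream-only for 723 RS4;11 and 729 THP-1 members, which the shared position largely fixes.

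Up to 3000 bp, wider members were shared more often. Under 1000 bp, 298 of 928 RS4;11 members (32.1%, 29.2 to 35.2) and 295 of 1139 THP-1 members (25.9%, 23.4 to 28.5) overlapped the other line. The same share over all peaks of that width was 28.0% and 25.8%. From 2000 to just under 3000 bp, 106 of 146 (72.6%, 64.9 to 79.2) and 80 of 116 members (69.0%, 60.1 to 76.7) did, against 86.5% and 83.1% of all peaks. Thus narrow members were shared no less often than narrow peaks of all positions together, whereas members of 2000 to 3000 bp were shared less often than peaks of that width. The latter was not particular to members. At that width 71.3% and 61.5% of upstream-only and 44.6% and 54.6% of intron-only peaks were shared, against 92.2% and 86.0% of exon-flagged peaks. Under 1000 bp, upstream-only peaks were shared in 38.6% (35.8 to 41.5) in RS4;11 cells, above the members, and 28.7% (26.5 to 31.0) in THP-1 cells. Exon-flagged peaks of that width were shared in 38.8% (36.1 to 41.6) and 31.1% (28.9 to 33.4), above the members in both lines with intervals apart. Intron-only peaks of that width, at 20.5% and 22.0%, were below the members. At 3000 bp or more, 20 of 34 RS4;11 members (58.8%, 42.2 to 73.6) and 20 of 24 THP-1 members (83.3%, 64.1 to 93.3) were shared, against 82.5% of all peaks of that width in each line. A wider interval also has more bases with which to meet another.

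**Figure D2:**
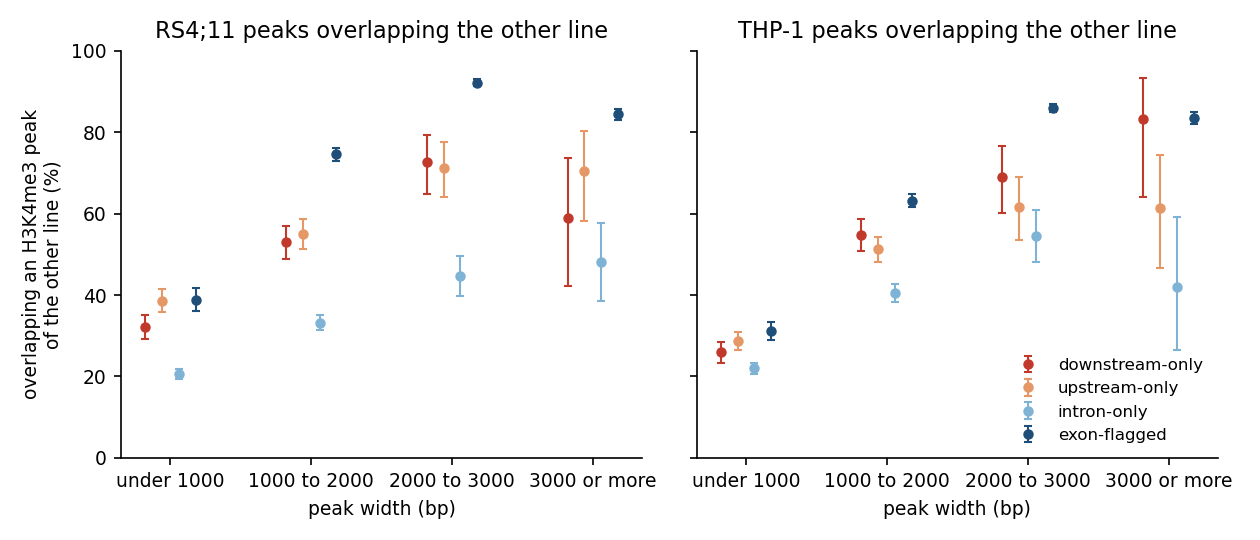
Share of H3K4me3 peaks (%) that overlap a peak of the other line, by peak width (bp) and position relative to transcripts, with 95% Wilson intervals over peaks. Downstream-only peaks rise from 32.1% to 72.6% in RS4;11 cells between the first and the third width group and from 25.9% to 69.0% in THP-1 cells, below the exon-flagged peaks in each group up to 3000 bp.

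Shared and unshared members differed in width and in CpG content. Shared members had a median width of 1159 bp in RS4;11 cells and 1178 bp in THP-1 cells, against 812 and 775 bp for those found in 1 line. The ratio of observed to expected CpG had a median of 0.44 and 0.45 in shared members and of 0.23 and 0.30 in the rest. By a rule of a ratio above 0.6 and at least 50% G and C over the whole peak, 172 shared RS4;11 members (23.5%) were CpG-rich, against 37 (3.87%) of the unshared. In THP-1 cells 177 (23.8%) and 133 (11.4%) were.

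**Figure D3:**
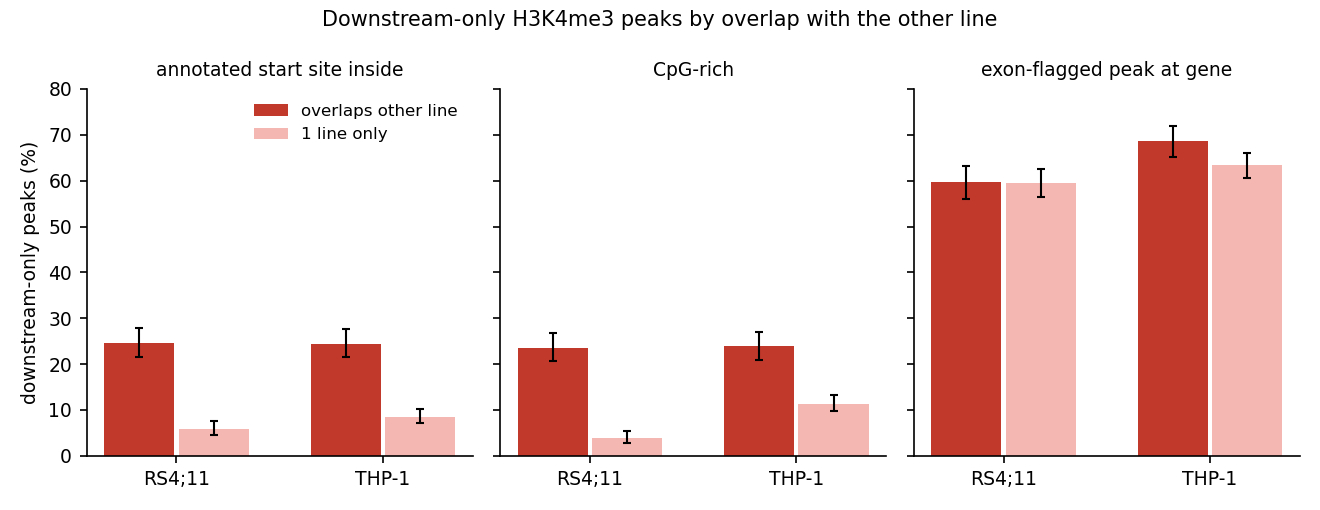
Share of downstream-only H3K4me3 peaks (%) with an annotated start site inside, that are CpG-rich, and whose gene also has an exon-flagged peak, for members that overlap the other line (dark bars) and members of 1 line (light bars), with 95% Wilson intervals over peaks. The first measures are higher in shared members, 24.6% against 5.86% and 23.5% against 3.87% in RS4;11 cells, and the last is 59.6% in both RS4;11 groups.

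Among all members the median CpG ratio was 0.29 in RS4;11 and 0.34 in THP-1 cells. It was 0.61 and 0.63 in exon-flagged, 0.28 and 0.36 in upstream-only and 0.23 and 0.25 in intron-only peaks. CpG-rich members numbered 209 of 1687 (12.4%, 10.9 to 14.0) and 310 of 1911 (16.2%, 14.6 to 17.9), against 42.3% and 47.9% of exon-flagged peaks.

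Annotated transcription start sites (TSS) lay inside a minority of the members. With the transcripts of GENCODE release 44 on the same coordinates, 235 of 1684 RS4;11 members (14.0%, 12.4 to 15.7) and 280 of 1906 THP-1 members (14.7%, 13.2 to 16.4) held one, against 46.9% and 48.8% of all peaks. The start belonged to a protein-coding gene in 53 and 63 members, to a lncRNA gene in 151 and 182, and to another kind of gene in 31 and 35. Thus lncRNA starts outnumbered protein-coding starts, whereas in exon-flagged peaks 84.1% and 84.3% held a protein-coding start. A peak over the start of a joined RefSeq transcript would carry an exon flag and could not be a member. The low share with a start and the few protein-coding starts are therefore largely set by the rule. Upstream-only peaks held any start in 19.6% and 21.4%, above the members in both lines with intervals apart.

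Members with a TSS were wide and mostly shared. Those with a lncRNA start had median widths of 1605 and 1622 bp, and 117 of 151 (77.5%, 70.2 to 83.4) and 122 of 182 (67.0%, 59.9 to 73.4) overlapped the other line. Those with a protein-coding start had medians of 1947 and 1532 bp, and 45 of 53 (84.9%) and 42 of 63 (66.7%) overlapped it. Members without a start had medians of 868 and 828 bp, and 37.9% and 34.4% overlapped it. A wider interval has more bases both to hold a start and to meet another peak. From under 1000 bp to 3000 bp or more, the share of members with a start rose from 6.27% to 52.9% in RS4;11 cells. In THP-1 cells it rose from 5.91% to 52.2%. Sharing with and without a start was not compared at equal width. Most of the shared members still held no annotated start, 549 and 559 in number.

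Examples were found at genes of blood cells. Past FOS, an immediate early transcription factor, the member at the start of LINC01220 was 2938 bp in RS4;11 cells (chr14:75760283-75763220) and 3347 bp in THP-1 cells. Past CD34, a marker of hematopoietic progenitors, the member at the start of MIR29B2CHG, host of microRNA genes, was 2295 and 1960 bp. Past MLLT1, a fusion partner of MLL, and ACSBG2, the member at an RFX2 start was 1925 and 1854 bp. Past CDKN1A, a cyclin-dependent kinase inhibitor, the 2697 bp member at the start of RAB44 was found in THP-1 cells without an overlapping RS4;11 peak.

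The position after the gene was measured to the end of the nearest flagged gene in GENCODE, which could be located for 1661 and 1883 members. The median distance of the peak centre past that end was 7144 bp in RS4;11 cells and 7494 bp in THP-1 cells. Within 1000 bp lay 65 (3.91%) and 77 members (4.09%), and between 1000 and 2000 bp 5.24% and 5.58%. Between 15000 and 20000 bp lay 256 (15.4%) and 308 (16.4%). A peak that reaches the last exon of a joined transcript carries an exon flag. The rule therefore lowers the count within 1000 bp. For 180 and 183 members the centre lay before the GENCODE end, and for 29 and 35 it lay more than 20000 bp past it. Those before the end included the members flagged for ADPRHL1 and ZEB2, the shared members flagged for TLR4 and IRF1, and those flagged for BCL9 and ACP6. The members nearest the limit of the rule were centred 19980 bp past TMSB10 in RS4;11 cells and 19949 bp past GAS1 in THP-1 cells. Peaks beyond the limit were not analysed here.

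**Figure D4:**
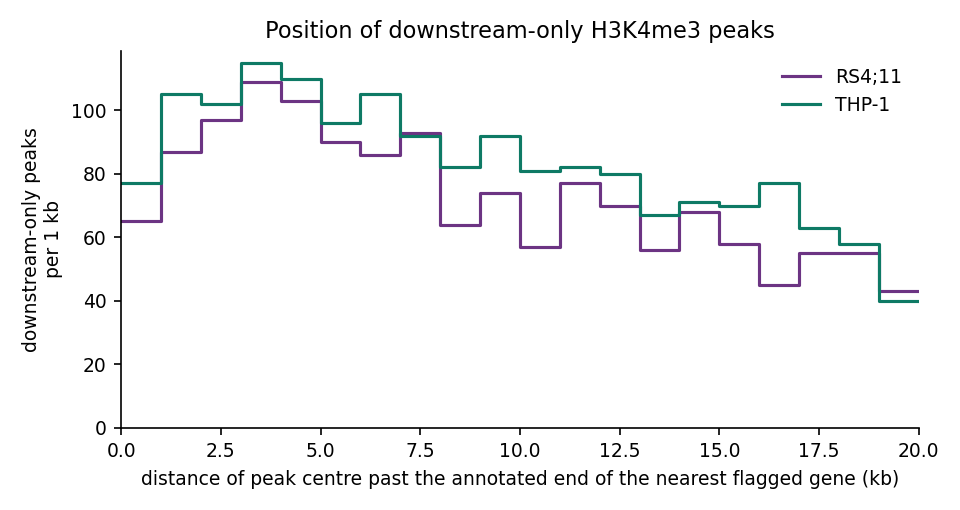
Number of downstream-only H3K4me3 peaks per 1 kb of distance (kb) between the GENCODE end of the nearest flagged gene and the peak centre, for RS4;11 and THP-1 cells. Peaks are spread over the whole 20 kb window, with 3.91% and 4.09% of the located peaks in the first 1 kb. Peaks that reach an exon are left out by the rule, which lowers the first count. Centres before the end or beyond 20 kb are left out.

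Outside transcripts here means outside the RefSeq transcripts that the authors joined. Against GENCODE, which holds more transcripts, the same test left 570 of 1684 RS4;11 members (33.8%) and 613 of 1906 THP-1 members (32.2%) downstream-only. The centre lay in no gene of any kind for 1039 (61.6%) and 1200 members (62.7%). It lay in an intron of a lncRNA gene for 236 and 272, in an intron of a protein-coding gene for 205 and 217, in a lncRNA exon for 90 and 88, and in a protein-coding exon for 78 in RS4;11 and 88 in THP-1 cells.

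The same gene often had an exon-flagged peak as well. At least 1 gene flagged for the member had one in the same line for 1006 of 1688 RS4;11 members (59.6%, 57.2 to 61.9) and 1252 of 1914 THP-1 members (65.4%, 63.3 to 67.5). Counted by gene, 943 of 1740 symbols (54.2%) and 1189 of 1990 symbols (59.7%) had one, below the 68.2% and 70.5% of all symbols in the 2 files. A symbol can enter the count of all symbols through an exon-flagged peak alone, whereas the symbols of members enter through a downstream-only peak. The lower share therefore follows at least in part from how the symbols were counted. A member could be flagged for up to 16 and 23 symbols, and 1367 and 1579 members were flagged for 1. For 420 symbols (24.1%) in RS4;11 and 367 (18.4%) in THP-1 cells, downstream-only peaks were the only peaks in the file.

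When such an exon-flagged peak existed, it was distant and wider. The gap to the nearest had a median of 31471 bp in RS4;11 cells (quartiles 17044 and 62158) and 32966 bp in THP-1 cells (17405 and 70006). The member was the narrower of the pair in 834 of 1006 (82.9%) and 1049 of 1252 cases (83.8%). The paired exon-flagged peak had a median width of 2399 and 2178 bp, close to the 2359 and 2149 bp of all exon-flagged peaks. Members lie past the gene end and most exon-flagged peaks hold a start, so the gap is set in part by the rule. The nearest peak of any kind lay at a median of 18314 and 19396 bp, against 14033 and 13950 bp over all peaks.

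Exon-flagged peaks at the gene did not separate shared from unshared members in RS4;11 cells, where the share was 59.6% in each. In THP-1 cells the gene had one for 68.6% of shared (65.2 to 71.9) and 63.4% of unshared members (60.6 to 66.1), with overlapping intervals. For RS4;11 members found in no THP-1 peak, 617 of 957 (64.5%) had an exon-flagged peak at the gene in THP-1 cells. For THP-1 members found in no RS4;11 peak, 615 of 1171 (52.5%) had one in RS4;11 cells. For shared members the same shares were 68.7% (65.2 to 71.9) and 60.3% (56.7 to 63.8). The intervals of shared and unshared members overlapped for the RS4;11 members (64.5%, 61.4 to 67.4) and lay apart for the THP-1 members (52.5%, 49.7 to 55.4). So in THP-1 cells the shared members more often lay past a gene with an exon-flagged peak in RS4;11 cells.

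Most genes had 1 member, 1438 of 1740 symbols (82.6%) and 1678 of 1990 (84.3%), and 45 and 46 symbols had 3 or more. The 2 lines flagged 945 symbols in common, 54.3% of the RS4;11 symbols and 47.5% of the THP-1 symbols. NR2F2, an orphan nuclear receptor gene, had the most, 5 members of 559 to 1727 bp in THP-1 cells, and 1 of them overlapped an RS4;11 peak. NR2F2 had an exon-flagged peak in THP-1 cells and none in RS4;11 cells. CRTC3, a coactivator of CREB, had 4 members in each line, of 526 to 3399 bp in RS4;11 cells and 831 to 2169 bp in THP-1 cells, and 3 of them overlapped. INTS7, a subunit of the Integrator complex, had 4 members of 500 to 944 bp in THP-1 cells, none overlapping and none with an exon-flagged peak at the gene.

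The other genes with the most members in RS4;11 cells were not particular to that line, since some of their members overlapped downstream-only THP-1 peaks. DAD1, a subunit of the oligosaccharyltransferase, had 4 of 929 to 2986 bp, and the most distant held the TRAJ1 segment of the T-cell receptor alpha locus. GALNT9, a glycosyltransferase, had 4 of 612 to 1913 bp, and the widest held lncRNA starts. C5orf20 had 4 of 637 to 2945 bp, of which 3 also lay past TIFAB. ADPRHL1 had 3, of 1631 to 4339 bp. The overlapping THP-1 peaks were 1074 and 1060 bp wide past DAD1 and 870 and 1958 bp past GALNT9. They were 933 and 719 bp past C5orf20 and 1392 bp past ADPRHL1. In THP-1 cells GJA3, a lens connexin, had 3 of 839 to 3284 bp, and MRPL15, a mitochondrial ribosomal protein, had 3 of 1263 to 2289 bp. Some of these overlapped downstream-only RS4;11 peaks, of 2022 and 1853 bp past GJA3 and 1710 and 941 bp past MRPL15.

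Genes of the lineages were counted by lists, beside the 9.41% and 10.8% of all 18494 symbols in either file that had a member in RS4;11 and THP-1 cells. Of 22 myeloid factors, 8 had a member in each line (36.4%), and 5 were the same. Of 20 B-lineage factors, 7 (35.0%) had one in RS4;11 and 4 in THP-1 cells, and IKZF3 and BCL11A were in both. Monocyte receptors had 6 and 7 of 31. The B-cell receptor and recombination list had 3 of 24 in RS4;11 cells (CD34, IGLL1 and MME) and 1 in THP-1 cells (CD34). No granule protein gene had a member in either line, of 13 in the files.

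Among the myeloid factors, IRF8 was the most uneven. IRF8 directs the differentiation of monocytes and B cells. In THP-1 cells a 3358 bp member (chr16:85959573-85962930) lay 5039 bp past it with no overlapping RS4;11 peak, and a second of 452 bp lay inside a 752 bp RS4;11 member at the start of LINC02132. The gene had an exon-flagged peak in RS4;11 cells and none in THP-1 cells. ID2, a regulator of lymphoid differentiation, had a THP-1 member of 819 bp without an exon-flagged peak in THP-1 cells and with one in RS4;11 cells. KLF6, a zinc finger factor, showed the same arrangement with a 709 bp member.

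KLF4, another zinc finger factor, had a shared member of 1283 bp in RS4;11 cells and 1384 bp in THP-1 cells and a second of 1273 bp in THP-1 cells only. JUN and GFI1 had members in RS4;11 cells only, 1 of 873 bp and a pair of 1176 and 675 bp, and no exon-flagged peak in either line. RARA and IRF1 had a shared member each, of 570 and 646 bp and of 1591 and 903 bp.

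Among the B-lineage factors, EBF1, ERG, SOX4 and ARID5B each had 1 member in RS4;11 cells, of 1289, 828, 1482 and 434 bp, with no overlapping THP-1 peak. All 4 genes had an exon-flagged peak in THP-1 cells and none in RS4;11 cells. BACH2, a repressor in B cells, had a pair of RS4;11 members of 883 and 680 bp, also without an overlapping THP-1 peak, and an exon-flagged peak in both lines. IKZF3, an Ikaros family factor, had a shared member of 3463 bp in RS4;11 cells and 1458 bp in THP-1 cells, also flagged for GRB7. IKZF1 had a member of 1058 bp in THP-1 cells and an exon-flagged peak in neither line. BCL11A had a shared member of 890 and 759 bp at the start of MIR4432HG. The IGLL1 member, past a surrogate light chain gene, was 1584 bp in RS4;11 cells and met no THP-1 peak.

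Among the receptors, CD14, CX3CR1, SIRPA, TLR4 and FCGR2A had members in both lines. Those of FCGR2A were also flagged for FCGR3A and HSPA6, and the nearest gene end was that of HSPA6 or FCGR3A. The shared TLR4 member was centred in a protein-coding exon of GENCODE, before the end of TLR4. The shared member past CD14, the lipopolysaccharide coreceptor, was 861 bp in RS4;11 cells and 1020 bp in THP-1 cells, and that past CX3CR1, the fractalkine receptor, 690 and 1316 bp. CD36, a scavenger receptor, and IL1R2, a decoy receptor, had members of 738 and 991 bp in THP-1 cells only. TREM1 had one of 859 bp in RS4;11 cells only, also flagged for TREML2P1 and TREML4 and nearest the end of TREML2P1.

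Of 29 target genes of MLL fusion proteins, 3 (10.3%) had a member in RS4;11 and 4 (13.8%) in THP-1 cells, near the share of all symbols. MYC was the gene in common, with a member of 746 bp in RS4;11 cells inside one of 2343 bp in THP-1 cells, and no exon-flagged peak in either. BCL2, an inhibitor of apoptosis, had members of 2081 and 609 bp in RS4;11 cells only. MEIS1, a HOX cofactor, had one of 1515 bp in THP-1 cells only. ZEB2 had a pair of 762 and 755 bp in THP-1 cells, centred in an intron and before the GENCODE end of ZEB2. CPEB2 had one of 993 bp in THP-1 cells, and ADARB2 one of 806 bp in RS4;11 cells.

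Cytokine genes had members in 3 of 20 and 4 of 20 cases. TGFB1 was in both lines, with a peak of 2256 and 2145 bp that was also flagged for CCDC97 and HNRNPUL1. CXCL2 and LIF had members in RS4;11 cells only, and CCL3, CCL20 and CXCL1 in THP-1 cells only, with widths of 419 to 1598 bp. Of the cell cycle and apoptosis genes, 2 of 18 and 3 of 18 had members. PMAIP1, a pro-apoptotic BH3-only gene, had 3 members in RS4;11 cells, of 1378, 830 and 1129 bp, and 1 of 887 bp in THP-1 cells. BCL2L1, an anti-apoptotic gene, had a shared member of 715 and 717 bp. MLLT1 was 1 of 20 genes of MLL complexes and fusion partners with a member. Of 7 target genes that the study followed up, BCL9 had a member of 1132 bp in RS4;11 cells and 552 bp in THP-1 cells at different positions, both also flagged for ACP6.

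WDR5 peaks of the same line overlapped 6 RS4;11 members (0.355%, 0.163 to 0.773), against 0.240% of all RS4;11 peaks, and 5 THP-1 members (0.261%, 0.112 to 0.610), against 0.102% of all THP-1 peaks. At 3 loci both marks were present in both lines, past NBR1 and TMEM106A (chr17:41381594-41382417 in RS4;11 cells), past ROCK1 (chr18:18512743-18513167) and past MIR1977 (chr1:565557-565937). Several lay in sequence with near copies elsewhere in the genome, counted at 90% identity or more over at least 80% of the member. The MIR1977 members, 381 and 610 bp on chromosome 1, had 1 copy, in the mitochondrial genome, at 98.9% and 98.4% identity. The ROCK1 members had 7 and 4 copies, the SEC22B member of RS4;11 cells had 1 at 99.0%, and the THP-1 member past DUX4 on an unplaced contig had 11. No copy was found for the NBR1 and TMEM106A members of 824 and 972 bp, the RPN1 member (chr3:128335284-128338244) and the BTN2A1 member (chr6:26473675-26475719) of RS4;11 cells or the C18orf55 member of THP-1 cells, which shared 64 bp with the WDR5 peak. The part of these copies in the peaks was not tested.

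Some wide members held a match to a pattern for the B box, an internal promoter element of tRNA genes, which RNA polymerase III transcribes. A match alone does not show a tRNA gene. The B box was searched as GGTTCGANNCC on both strands, a choice made after the values were seen. Only exact matches were counted, so variants of the element, such as ggttcaaatcc in the ZNF213 window above, were missed. A match was found in 16 RS4;11 members (0.948%, 0.585 to 1.54) and 19 THP-1 members (0.994%, 0.637 to 1.55). Of all peaks 1.19% and 1.23% had one, so matches were no more frequent in members. In windows of equal length, the middle 500 bp, a match was found in 0.178% and 0.471% of members and in 0.314% and 0.392% of all peaks. Members with a match had median widths of 2440 and 2032 bp. The first match inside the widest such members, by gene, is given with its surroundings on the strand of the match, in capitals.
past ZNF213, THP-1, chr16:3200666-3200756, plus strand: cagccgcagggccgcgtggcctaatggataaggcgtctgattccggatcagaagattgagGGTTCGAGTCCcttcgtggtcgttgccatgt
past GRASP, RS4;11, chr12:52417517-52417607, minus strand: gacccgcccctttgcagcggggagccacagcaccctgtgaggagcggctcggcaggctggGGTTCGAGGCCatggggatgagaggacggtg
past HMGN4, RS4;11, chr6:26553721-26553811, plus strand: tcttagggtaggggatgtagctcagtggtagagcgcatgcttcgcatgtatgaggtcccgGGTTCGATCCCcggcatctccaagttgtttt
RefSeq, on another build and therefore used for neighbours only, lists 4 tRNA genes within 20 kb past ZNF213, 4 past HMGN4 and 0 past GRASP. Such a neighbour was listed for 10 of 16 RS4;11 members with a match and 12 of 1638 without one. In THP-1 cells the counts were 9 of 19 and 17 of 1851. The 2634 bp RS4;11 member flagged for FCGR2A, FCGR3A and HSPA6 held 2 matches and had 3 such neighbours. The HMGN4 member, past a gene of a nucleosome-binding protein, was 3697 bp wide and met no THP-1 peak, and the first ZNF213 member of THP-1 cells, 4077 bp wide, met no RS4;11 peak.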

How the data were processed

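H3K4me3 and WDR5 ChIP-seq of RS4;11 and THP-1 cells was used, 1 sample per antibody and line. According to the methods and the labels, the authors fragmented chromatin with micrococcal nuclease (H3K4me3) or sonication (WDR5), used Eland for unique alignments to hg19 and MACS with its default settings for peak calling, and paired peaks with RefSeq transcripts within 20 kb. The submitters' processing notes name CASAVA 1.7 and 1.8.2. An input control and the MACS version are not given in the sources used here. The deposited files hold positions and yes or no flags, so depth is unknown, and removal of reads with several alignments lowers signal in repeated sequence.

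Lines were reduced to distinct peaks, with width counted inclusively. The members, gene lists and named genes were chosen with earlier results of these data known. Named were, per line, the 5 genes with the most members, the 5 widest members and the 3 widest without overlap in the other line, the 8 loci with the most shared bases, members at listed genes and members overlapping WDR5. Some genes and sequences that this rule names are not reported here. Sequence came from GRCh37 (the same coordinates as hg19) and genes from GENCODE release 44 in its version for that build. The downstream flags followed the strand for 99.8% of located pairs in each line, and 2708 of 2785 symbols flagged for members were matched to GENCODE. Without annotation were 4 and 8 members, and without reference sequence 1 and 3. tRNA neighbours came from RefSeq genes of GRCh38.p14, and copies from blastn 2.17.0. Shares have 95% Wilson intervals over peaks, and no test was run. The functions were tested on simulated peaks. Python 3.11.15, numpy 2.4.6, pandas 2.3.3, pysam 0.24.0 and matplotlib 3.10.9 were used. Alternatives changed the transcripts, the joining of peaks, the overlap, the flags, the TSS, the CpG window and the gene end.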

Additional observations from a re-analysis of the deposited data

How the results depend on the processing

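Of the 34 alternatives run, 14 left the value within its interval or ratio. With GENCODE in place of the authors' flags, downstream-only peaks were 2.37% of RS4;11 and 2.34% of THP-1 peaks. Without a TSS inside, the median widths were 868 and 828 bp. The gene had a peak with an exon, intron or upstream flag for 79.1% and 83.5% of members, every flagged gene had an exon-flagged peak for 50.5% and 57.2%, and an exon-flagged peak in either line was found for 74.8% and 72.5%, an alternative added after seeing the data. A protein-coding TSS lay inside 3.15% and 3.31%, and a TSS within 1000 bp of 20.2% and 21.1%. In the middle 500 bp the CpG ratio was 0.31 and 0.37. Without members that have a copy elsewhere, also added later, 3 and 2 members overlapped WDR5. The median distance to the nearest protein-coding gene end was 10104 and 10028 bp. These alternatives change what is counted. Sharing moved little with the overlap rule, from 42.8% to 45.0% in RS4;11 and from 38.1% to 40.0% in THP-1 cells. No paired analysis was possible because no result comes from a test and each line has 1 sample per antibody. Depth and culture-to-culture variation are unknown, and limit every comparison of the lines.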

Other observations

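Gene families, taken by symbol after the values were seen, were counted for downstream-only peaks, with no test. Each share is of the symbols that have some peak in the file, so genes without any peak within 20 kb are not in the denominator. All symbols of the RS4;11 and THP-1 files had such a peak in 10.7% and 11.4% of cases. Olfactory receptor genes, which lie in clusters and are silent in most tissues, had one for 29 of 80 symbols (36.2%) and 28 of 85 (32.9%), from 25 and 26 peaks, because a peak can lie past several neighbouring genes. Zinc finger genes named ZNF had one for 39 of 450 symbols (8.67%) and 38 of 473 (8.03%). Replication-dependent histone genes had one for 2 of 58 and 0 of 65 symbols. Genes of microRNAs and other small RNAs had one for 53 of 490 (10.8%) and 37 of 513 (7.21%), and 16 and 15 peaks were flagged for such genes alone.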
